A study of Saccharomyces cerevisiae with 18 samples.

Results

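The genes NUP116, CSM3 and ERB1 and their neighbours on chromosome XIII of the budding yeast Saccharomyces cerevisiae were followed across 18 expression arrays. The 10 genes, of 5449 measured, are in chromosome order ARG80, MCM1, IOC4, NUP116, CSM3, ERB1, FAR3, STB2, STV1 and BUB2. CSM3 (YMR048W) and ERB1 (YMR049C) were chosen by their log2 signal, which was high on arrays of one mutant, and the others because they lie beside them. Every comparison of that mutant with the other genotypes is therefore given as values with no test, for all 10 genes. The question was whether the higher level is local to CSM3 and ERB1. In these values it is shared by NUP116 as well, so that 3 adjacent measured genes were high, and the 7 flanking genes were not.

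The mutant, C404A, carries a Swi6 protein in which 1 cysteine is replaced by alanine, and it was compared with a strain that lacks SWI6 (the swi6 deletant) and with SWI6 wild type. Each genotype was sampled after 45 min in 30 µM linoleic acid hydroperoxide (LoaOOH), a lipid hydroperoxide used to impose oxidative stress, and as an untreated control, with 3 arrays in each of the 6 groups. All cultures grew in synthetic medium without leucine. The sources used here do not name the parent strain, the carrier of the C404A allele or the number of isolates per genotype. Nor do they say whether the 3 replicates of a group came from different cultures, so each p-value measures the spread between these samples, which may be technical. Levels are log2 signals of 1 probe set per gene, in which 1 unit is a doubling, and a level is comparable between arrays but not between genes.

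Swi6 is the shared subunit of SBF and MBF, the transcription factors that switch on genes at the start of the cell cycle, and CSM3 acts in the phase that follows. Csm3 travels with the replication fork together with Tof1 and Mrc1, holds stalled forks stable and helps sister chromatid cohesion. Erb1 is a nucleolar protein that assembles the large ribosomal subunit in a complex with Nop7 and Ytm1. Nup116 is a nucleoporin with a repeat domain that lines the channel of the nuclear pore and takes part in mRNA export.

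In chromosome order the 3 genes lie between 3 members on one side and 4 on the other. The R64 annotation places 2 further protein-coding entries without a gene name, YMR045C and YMR046C, and 1 tRNA gene between IOC4 and NUP116. Between ERB1 and FAR3 it places 2 more such entries, YMR050C and YMR051C, and 2 tRNA genes. None of these had a named probe set, so the arrays as named here say nothing about them. By their systematic names NUP116 and ERB1 are read from the opposite strand to CSM3, which lies between them.

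SWI6 mRNA bore out the deletant labels. Its log2 signal averaged 3.70 after LoaOOH and 3.45 in control cells of the deletant, below the background of 4.52 set by probe sets for another organism, and lay between 10.23 and 10.54 in the other 4 groups. It does not check the C404A labels, since a changed codon leaves the transcript in place. The a-cell gene STE2 had group means from 13.55 to 13.80 and the alpha-cell gene STE3 from 7.85 to 8.09, both above background, so mating type was not read from these arrays. The array of C404A cells after LoaOOH, replicate 2, lay furthest from its group, with an SD over genes of 0.203 from the group mean against 0.0955 to 0.187 for the other 17 arrays. Replicates 1 and 2 carry the description prefix CT and replicate 3 the prefix JC, and the labels do not say what the prefixes stand for.

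CSM3 was high on every C404A array. Its log2 signal was 10.45, 10.58 and 10.70 on the 3 C404A arrays after LoaOOH and 10.43, 10.72 and 10.57 on the 3 C404A control arrays. On deletant arrays it was 9.47, 9.50 and 9.48 after LoaOOH and 9.52, 9.51 and 9.33 in control cells, and on wild type arrays 9.41, 9.48 and 9.51 after LoaOOH and 9.34, 9.48 and 9.35 in control cells. The 6 C404A arrays form one set and the other 12 arrays another, and the lowest C404A array was 0.92 above the highest of the others. Set against wild type, the C404A mutant was higher by 1.11 ± 0.0814 after LoaOOH and by 1.19 ± 0.0814 in control cells (log2 difference ± SE, 3 arrays per group), which is 2.16-fold and 2.28-fold. Set against the deletant, it was 2.13-fold higher after LoaOOH and 2.18-fold higher in control cells. These are bulk RNA samples, in which more RNA per cell and more cells at a stage that expresses a gene cannot be told apart.

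NUP116 gave the same separation with a smaller difference. Its log2 signal was 11.70, 11.47 and 11.58 on C404A arrays after LoaOOH and 11.67, 11.51 and 11.39 on C404A control arrays. On deletant arrays it was 10.86, 10.78 and 10.79 after LoaOOH and 10.88, 10.73 and 10.89 in control cells, and on wild type arrays 10.83, 10.81 and 10.87 after LoaOOH and 10.89, 10.80 and 10.94 in control cells. Again no C404A array overlapped any of the other 12, with a gap of 0.45. The C404A mutant was higher than wild type by 0.75 ± 0.0775 after LoaOOH and by 0.65 ± 0.0775 in control cells, 1.68-fold and 1.57-fold, and higher than the deletant 1.71-fold and 1.61-fold.

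ERB1 was high in the C404A mutant within each treatment, over means that were lower after LoaOOH, a treatment difference called in no genotype. Its log2 signal was 11.75, 12.26 and 12.06 on C404A arrays after LoaOOH and 12.35, 12.10 and 12.52 on C404A control arrays. On deletant arrays it was 10.98, 11.20 and 11.09 after LoaOOH and 11.58, 11.63 and 11.46 in control cells, and on wild type arrays 11.33, 11.12 and 11.26 after LoaOOH and 11.76, 11.74 and 11.49 in control cells. Within each treatment no C404A array overlapped another genotype, but across treatments the lowest C404A array, after LoaOOH at 11.75, lay just below the highest wild type control array at 11.76. The C404A mutant was higher than wild type by 0.79 ± 0.127 after LoaOOH and by 0.66 ± 0.127 in control cells, 1.72-fold and 1.58-fold, and higher than the deletant 1.91-fold and 1.70-fold.

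**Figure D1:**
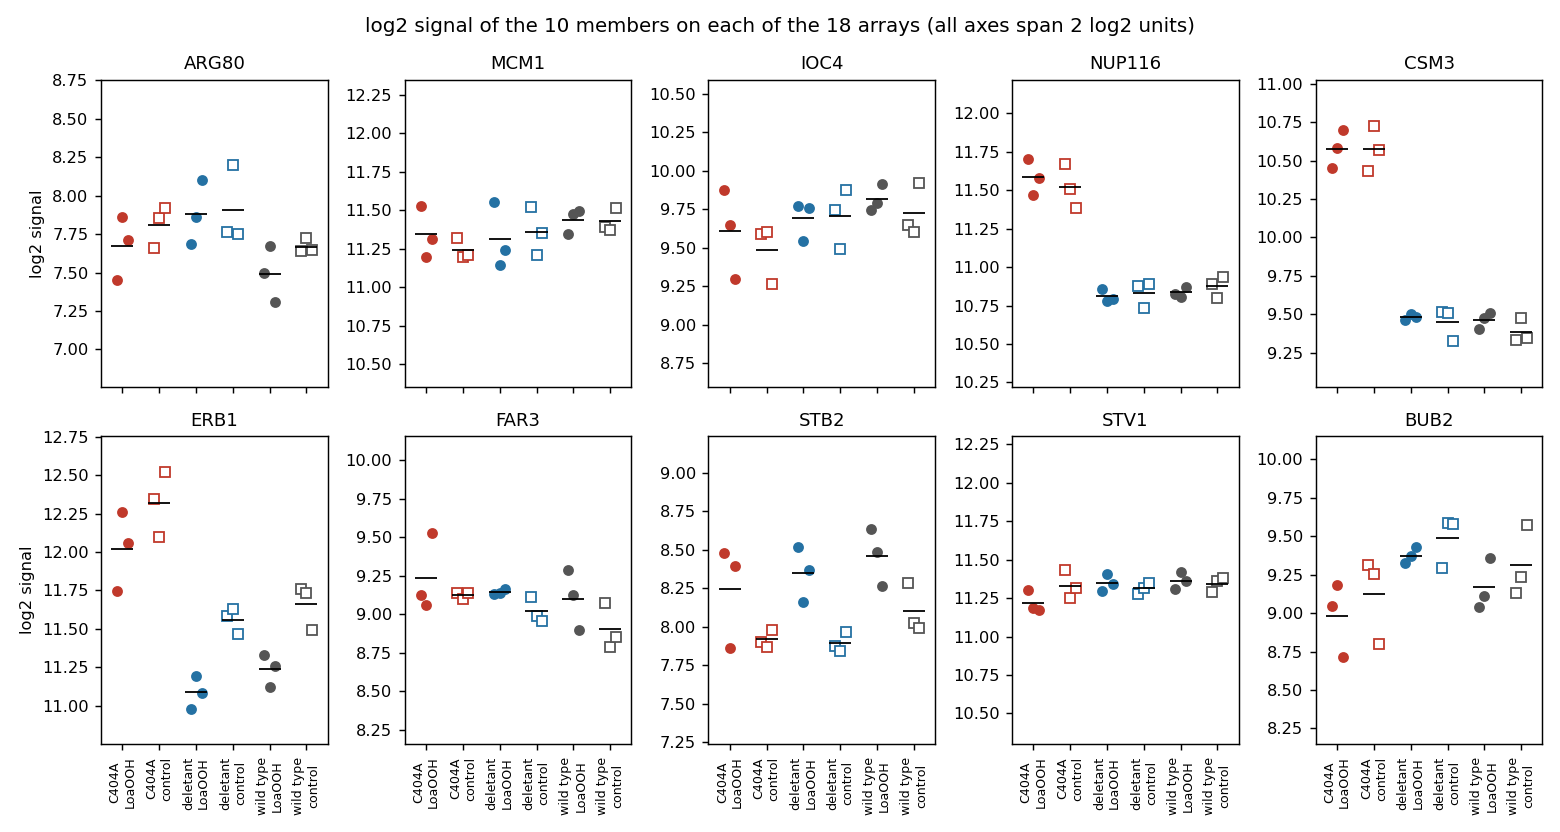
log2 signal of each of the 10 genes on each array, in panels in chromosome order. Filled circles are LoaOOH arrays, open squares control arrays, bars the group means of 3 arrays, and colours the genotypes. Within each treatment C404A arrays stand apart for NUP116, CSM3 and ERB1, by 1.19 (CSM3), 0.65 (NUP116) and 0.66 (ERB1) over wild type in control cells. In the remaining panels the C404A arrays as a set overlap the others. Some single C404A arrays still lie outside the others there, below them for IOC4 (9.30 and 9.26), STV1 (11.17) and BUB2 (8.71 and 8.80) and above them for FAR3 (9.53).

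The difference from wild type was positive on each of the 6 C404A arrays for these 3 genes. Set against the wild type mean of the same treatment, single C404A arrays ran from 0.99 to 1.34 for CSM3, from 0.51 to 0.87 for NUP116 and from 0.43 to 1.02 for ERB1. Within the CT arrays the C404A minus wild type difference after LoaOOH and in control cells was 1.07 and 1.17 for CSM3, 0.77 and 0.75 for NUP116, and 0.78 and 0.47 for ERB1, with 2 arrays per group. Within the JC arrays, with 1 array per group, it was 1.19 and 1.22 for CSM3, 0.71 and 0.45 for NUP116, and 0.80 and 1.03 for ERB1. All 12 of these differences are above 0, and the size of the ERB1 difference in control cells was the one that varied most between the sets. CSM3 and ERB1 were chosen by their level on these C404A arrays, so their signs were largely set by that choice. The signs are therefore a description.

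Across all genes few separated the C404A arrays in this way. All 6 C404A arrays lay above all 12 others for 17 genes (0.312%) and below them for 15 (0.275%), and CSM3 and NUP116 were the members among the higher ones. CSM3 had the widest gap of all, followed by TIR1, which encodes a cell wall mannoprotein, on chromosome V at 0.66, YAR068W on chromosome I at 0.53, NUP116, and MNN1, an alpha-1,3-mannosyltransferase gene on chromosome V, at 0.41. Since CSM3 and ERB1 were chosen by their level on C404A arrays, and the other members as their neighbours, the count is a description. The same gap was found in adjacent genes only for NUP116 with CSM3 and for YAR066W with YAR068W on chromosome I. Among 5160 windows of 3 adjacent measured genes outside chromosome V, ranked by the smallest of the 3 differences between the C404A arrays and all other arrays, the window NUP116, CSM3 and ERB1 came first at 0.71, and the next, PHO89, MAL33 and MAL31 on chromosome II, reached 0.29. Ranked by the median of the 3 differences it had rank 3. Both ranks are descriptions, since the window holds CSM3 and ERB1, which were chosen by their level on C404A arrays.

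The size of the difference resembled that of genes on chromosome V, whose transcripts were higher than wild type in both mutants. The median over 259 chromosome V genes, C404A mutant minus wild type, was 0.72 after LoaOOH and 0.70 in control cells, with quartiles of 0.53 and 0.87 after LoaOOH and of 0.49 and 0.88 in control cells. NUP116 and ERB1 lay within those quartiles in both treatments. CSM3 lay above them, with 9 chromosome V genes higher after LoaOOH and 8 in control cells, and had rank 1 among the 5190 genes of the other chromosomes in both. Against the deletant CSM3 had rank 11 after LoaOOH and rank 17 in control cells among those genes, ERB1 ranks 16 and 52, and NUP116 ranks 27 and 65. The ranks are descriptions, since CSM3 and ERB1 were chosen by their level in the C404A mutant. In the deletant the chromosome V median was 0.78 after LoaOOH and 0.76 in control cells, while the 3 genes differed from wild type there by -0.15 to 0.07. The part of the chromosome V shift in the level of these 3 genes was not tested.

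**Figure D2:**
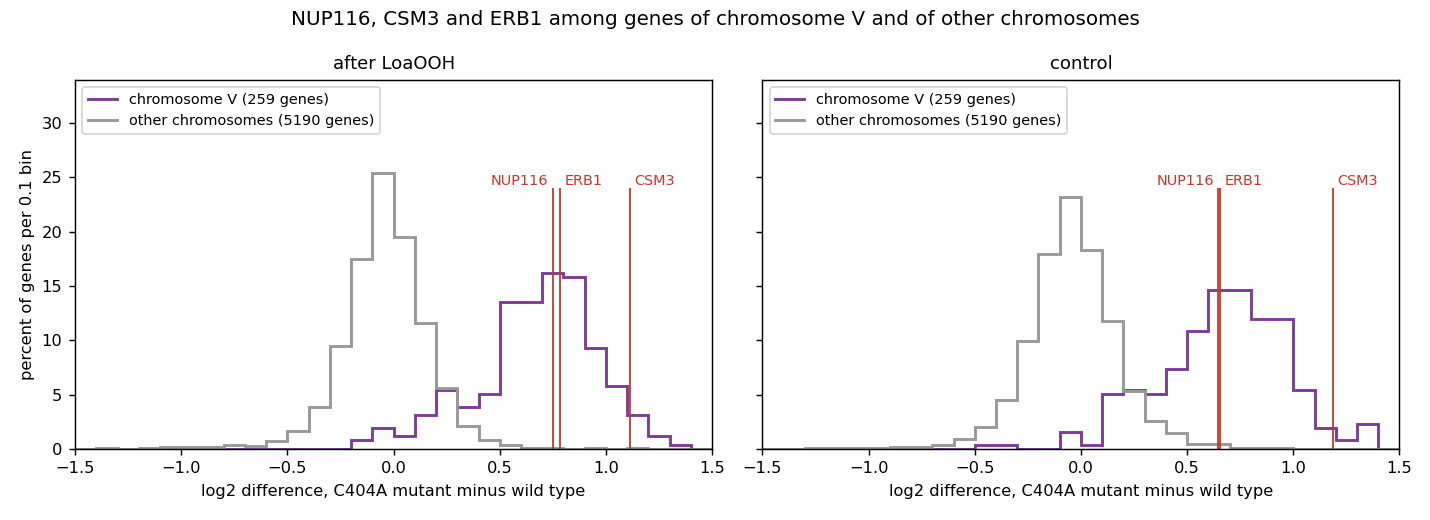
Distribution of the log2 difference, C404A mutant minus wild type, as percent of genes per bin of 0.1, for 259 genes of chromosome V (purple) and 5190 genes of other chromosomes (grey), after LoaOOH and in control cells. Genes beyond the axis are not drawn. Red lines mark NUP116 and ERB1, near the chromosome V medians of 0.72 and 0.70, and CSM3, at 1.11 and 1.19.

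The 7 flanking genes did not follow. Their differences between the C404A mutant and wild type ran from -0.22 to 0.18 after LoaOOH and from -0.24 to 0.22 in control cells, with SEs from 0.0604 to 0.155. The median of the 7 was -0.14 after LoaOOH and -0.18 in control cells, beside medians over all genes of -0.03 in both. Against the deletant the 7 ran from -0.39 to 0.09 after LoaOOH and from -0.36 to 0.11 in control cells. Within the CT arrays single flanking genes ran from -0.39 (STB2 after LoaOOH) to 0.19 (FAR3 in control cells). Within the JC arrays, with 1 array per group, they ran from -0.77 (BUB2 in control cells) to 0.63 (FAR3 after LoaOOH), so that a single JC pair overlaps the range of NUP116 and ERB1. At each border of the block the C404A minus wild type difference changed from 1 measured gene to the next. These steps were from IOC4 to NUP116 on one side and from ERB1 to FAR3 on the other. Entries without a named probe set lie at both borders, so the borders are not placed more closely.

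On the side before NUP116 lie ARG80 and MCM1, paralogous genes for MADS-box transcription factors, and IOC4. Arg80 joins Mcm1, Arg81 and Arg82 to control arginine genes, while Mcm1 also acts at cell cycle and mating genes. ARG80 averaged 7.67 after LoaOOH and 7.81 in control cells of the C404A mutant, against 7.49 and 7.67 in wild type. MCM1 averaged 11.35 and 11.24 in the C404A mutant, against 11.44 and 11.43 in wild type. IOC4, which encodes a subunit of the Isw1b chromatin remodeller, averaged 9.61 and 9.49 in the C404A mutant, against 9.82 and 9.73 in wild type, and was the nearest measured gene to the block on that side. For IOC4 the C404A minus wild type difference was -0.21 ± 0.144 after LoaOOH and -0.24 ± 0.144 in control cells. It came mostly from the JC arrays, at -0.62 and -0.66, and was -0.0061 and -0.03 over the CT arrays.

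On the side after ERB1 lie FAR3, STB2, STV1 and BUB2. FAR3, needed for lasting arrest by mating pheromone, averaged 9.24 after LoaOOH and 9.12 in control cells of the C404A mutant, against 9.10 and 8.90 in wild type. Its control arrays did not overlap, but its log2 difference of 0.22 ± 0.116 was smaller than that of ERB1. STB2, found through binding to the corepressor Sin3, averaged 8.25 and 7.92 in the C404A mutant, against 8.46 and 8.10 in wild type. STV1, a membrane subunit of the vacuolar-type proton pump in the Golgi and endosomes, averaged 11.22 and 11.33 in the C404A mutant, against 11.36 and 11.34 in wild type. BUB2, part of the GTPase-activating complex that holds back mitotic exit, averaged 8.98 and 9.12 in the C404A mutant, against 9.17 and 9.31 in wild type.

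Members whose 3 arrays did not overlap were also counted, against a high background, and flanking genes were among them. After LoaOOH the C404A arrays lay above wild type for NUP116, CSM3 and ERB1 (11.8% of all genes were higher in this way) and below it for STV1 (11.7%). In control cells they lay above wild type for these 3 and FAR3 (14.6%) and below it for MCM1, IOC4 and STB2 (17.2%). Against the deletant they lay above for the 3 genes alone after LoaOOH (6.09%) and in control cells (7.8%), and below for BUB2 after LoaOOH (11.9%). The comparisons with wild type and with the deletant share the C404A arrays, and the rule used these contrasts, so nothing further is read from the counts.

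Extending the view by 20 measured genes on each side added no gene higher than wild type by as much as NUP116, CSM3 and ERB1. Over these 40 genes the C404A minus wild type difference ran from -0.59 to 0.47 after LoaOOH and from -0.67 to 0.52 in control cells. The upper ends were both SAM37, a gene for a mitochondrial outer membrane import factor, 9 measured genes beyond CSM3. Against the deletant SAM37 was higher by 0.29 after LoaOOH and by 0.37 in control cells. The lower ends were both FET3, the multicopper oxidase of iron uptake, for which the deletant minus wild type difference was -1.23 after LoaOOH and -0.79 in control cells. SAM37, FET3 and MRPL3 are named after their values were seen. Among these 40 genes and the 10 members, NUP116 and CSM3 alone separated the 6 C404A arrays from the other 12. The gap was -0.012 for ERB1, -0.0137 for MRPL3 and -0.056 for SAM37, where a value below 0 is an overlap. Over the 414 other genes of chromosome XIII the median difference was -0.045 after LoaOOH and -0.0194 in control cells, so the chromosome as a whole lay near 0.

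**Figure D3:**
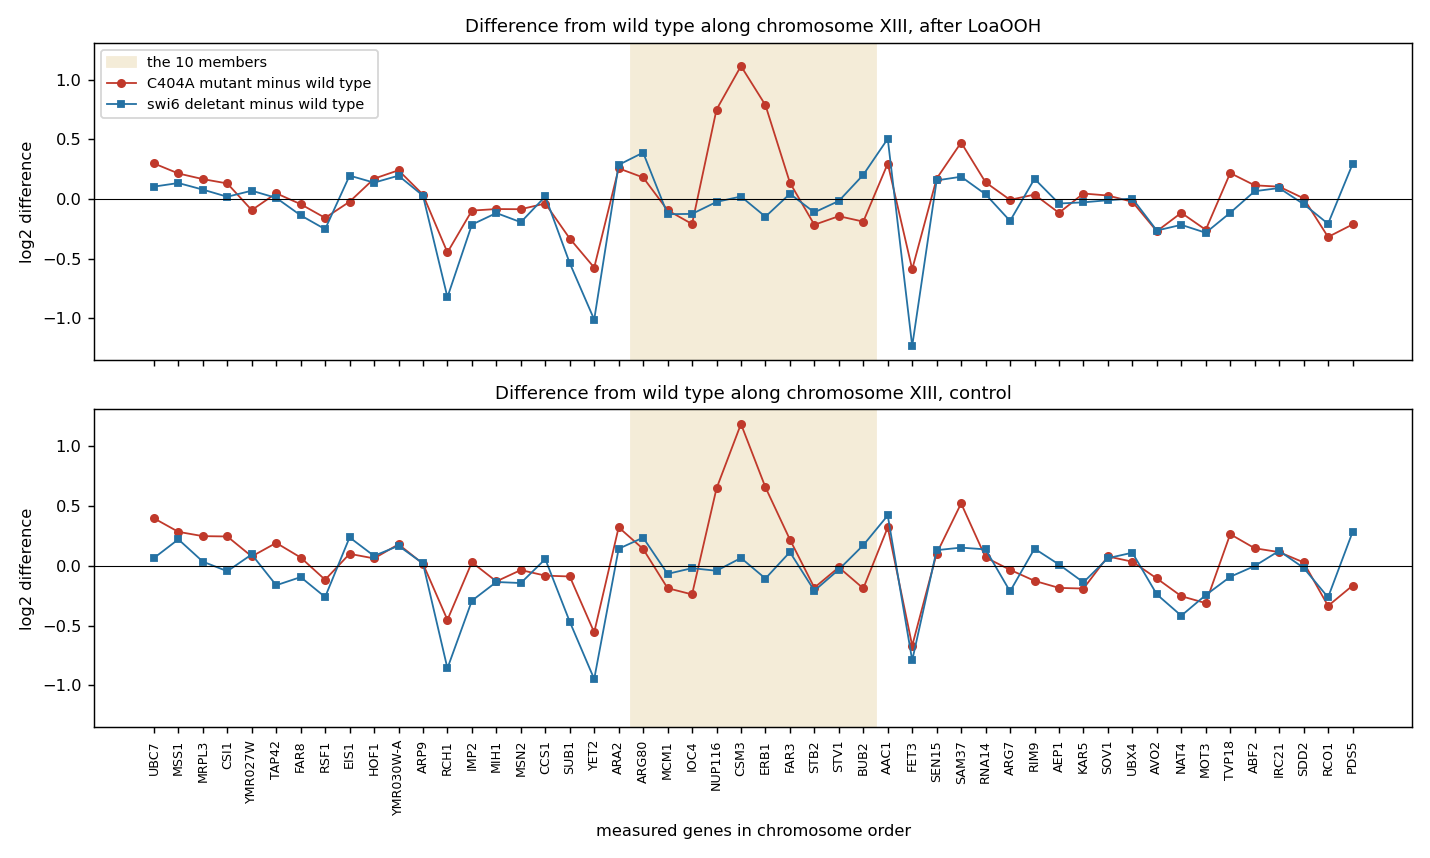
log2 difference from wild type of the C404A mutant (red circles) and the swi6 deletant (blue squares) for the 10 members (shaded) and 20 measured genes on each side, in chromosome order, after LoaOOH and in control cells. In the C404A mutant NUP116, CSM3 and ERB1 reach 0.75, 1.11 and 0.79 after LoaOOH and 0.65, 1.19 and 0.66 in control cells. The lines part by less at other genes, among them FET3 (C404A minus deletant 0.64 after LoaOOH), PDS5 (-0.50) and BUB2 (-0.39).

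Most partner genes examined did not share the difference. TOF1, the partner of CSM3, differed between the C404A mutant and wild type by -0.23 ± 0.0707 after LoaOOH and by -0.14 ± 0.0707 in control cells (SE), and MRC1, the fork checkpoint mediator, by -0.20 and -0.11. NOP7 and YTM1, which encode the partners of Erb1, differed by 0.10 and -0.01 after LoaOOH and by -0.24 and -0.23 in control cells. NUP100, the paralogue of NUP116, differed by -0.19 after LoaOOH and -0.29 in control cells. GLE2, whose product binds Nup116 directly, was higher by 0.93 after LoaOOH and 0.79 in control cells, and it lies on chromosome V. Over whole lists the medians of the C404A minus wild type difference after LoaOOH and in control cells were -0.09 and -0.11 for 17 replication fork genes, -0.06 and -0.23 for 22 genes of large subunit assembly, and -0.07 and -0.11 for 25 nuclear pore genes. In control cells 15 of the 22 assembly genes had all 3 C404A arrays below wild type, where ERB1 had all 3 above, and 17.2% of all genes were lower in this way. After LoaOOH 0 of the 22 did, against 11.7% of all genes.

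Exposure to LoaOOH was a comparison the choice of genes did not use, and it tested whether the block kept its level under oxidative stress. By limma 0 of the 10 genes passed in the C404A mutant (0.0% of all genes did), 0 in the deletant (3.56%) and 0 in wild type (0.257%). At an unadjusted p under 0.05 ERB1 and STB2 passed in each genotype, 2 of 10 each time, beside 5.85% of all genes in the C404A mutant, 21.3% in the deletant and 18.8% in wild type. In the deletant and wild type that count is at the level of all genes. ERB1 after LoaOOH differed from control by -0.30 ± 0.127 in the C404A mutant (adjusted p = 0.793), by -0.47 ± 0.127 in the deletant (adjusted p = 0.0543) and by -0.43 ± 0.127 in wild type (adjusted p = 0.0839). The LoaOOH arrays lay below the control arrays without overlap in the deletant (16.0% of all genes were lower in this way) and in wild type (15.4%), and overlapped them in the C404A mutant (1.63%). With the replicate number as a block within each genotype, 1 gene of all passed in wild type, against 14 without it, and 269 in the deletant, against 194. Of the members, STB2 then passed in the deletant (adjusted p = 0.0497) and 0 in the C404A mutant and wild type.

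STB2 leaned the other way. It was 8.48, 7.86 and 8.40 after LoaOOH and 7.90, 7.87 and 7.98 in control cells of the C404A mutant. In the deletant it was 8.52, 8.16 and 8.37 after LoaOOH and 7.87, 7.84 and 7.96 in control cells, and in wild type 8.63, 8.49 and 8.26 after LoaOOH and 8.28, 8.03 and 7.99 in control cells. The C404A array after LoaOOH, replicate 2, lay at the level of the control arrays. In the deletant STB2 and FAR3 were higher after LoaOOH without overlap (13.9% of all genes), in wild type no member was (12.5%), and in the C404A mutant all 10 genes overlapped (1.93%). The differences were 0.33 ± 0.144 (adjusted p = 0.793), 0.46 ± 0.144 (adjusted p = 0.0843) and 0.36 ± 0.144 (adjusted p = 0.177) in the C404A mutant, the deletant and wild type.

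These calls changed when single C404A arrays were left out, most with the LoaOOH array of replicate 2. Without it, STB2 rose in the C404A mutant (0.52, adjusted p = 0.0357) and in the deletant (adjusted p = 0.0173), and ERB1 fell in the deletant (adjusted p = 0.0214) and in wild type (adjusted p = 0.0358). All genes moved with it, since 183, 526 and 459 genes then passed in the C404A mutant, the deletant and wild type, against 0, 194 and 14 with all arrays. ERB1 in the deletant also passed without C404A LoaOOH replicate 1 (adjusted p = 0.0355) or without C404A control replicate 2 (adjusted p = 0.041). The ERB1 difference in the C404A mutant itself was -0.16 without LoaOOH replicate 1, -0.20 without control replicate 3 and -0.53 without both replicate 2 arrays (adjusted p = 0.999, 0.828 and 0.0341).

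CSM3 and NUP116 differed little between treatments. The LoaOOH minus control difference of CSM3 was 0.0013 in the C404A mutant (95% interval -0.17 to 0.18), 0.03 in the deletant (-0.14 to 0.21) and 0.08 in wild type (-0.10 to 0.25). That of NUP116 was 0.06 (-0.10 to 0.23), -0.02 (-0.19 to 0.14) and -0.04 (-0.21 to 0.13) in the same order. The response of the C404A mutant minus that of wild type was -0.07 for CSM3 (-0.32 to 0.17), 0.10 for NUP116 (-0.13 to 0.33) and 0.13 for ERB1 (-0.26 to 0.51). By limma 0 of 10 genes passed in this difference of responses, and 0 in that of the deletant, where 0.0% of all genes passed in each. At an unadjusted p under 0.05, 0 members passed in either, beside 0.606% of all genes for the C404A mutant and 0.367% for the deletant.

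**Figure D4:**
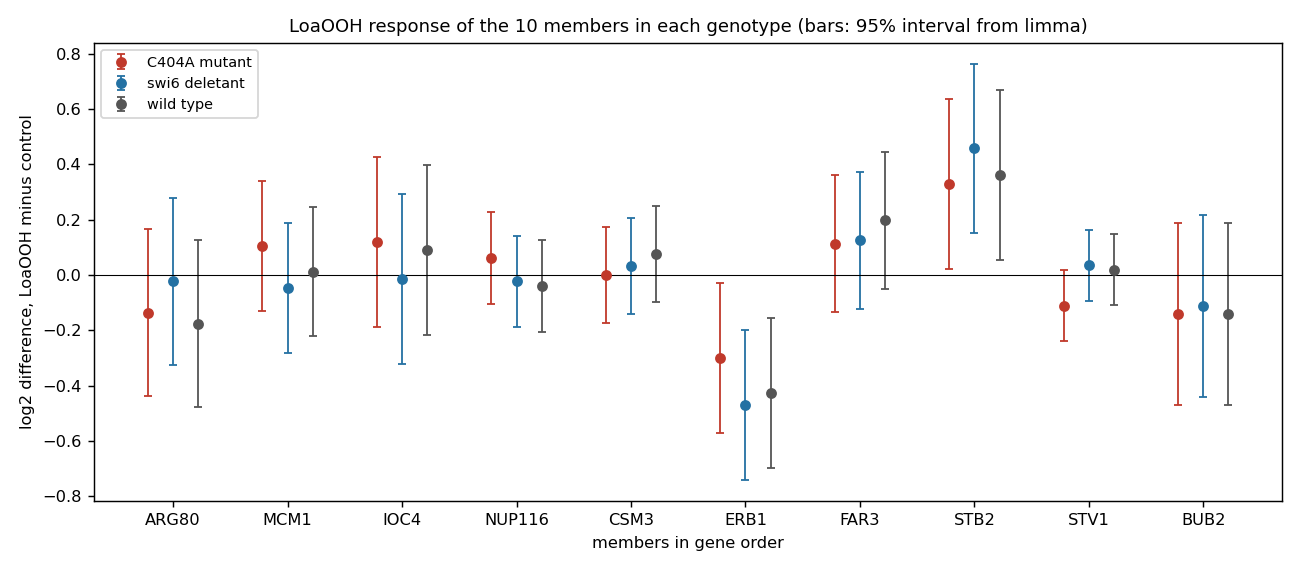
LoaOOH minus control log2 difference of each gene, in chromosome order, in the C404A mutant (red), the deletant (blue) and wild type (grey), with 95% intervals from limma over 3 arrays per group. Intervals of ERB1 lie below 0 and those of STB2 above 0 in each genotype before adjustment over all genes, and those of CSM3 and NUP116 span 0.

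Among the partners, LoaOOH calls were made only for large subunit assembly genes and only in the deletant, though the list fell by a similar size in wild type. Over all genes 1.74% fell and 1.82% rose in the deletant. Of the 22 measured, 3 fell and 0 rose, RIX1 by 0.51 ± 0.122 (adjusted p = 0.0381), RLP7 by 0.49 (adjusted p = 0.0425) and NOC3 by 0.41 (adjusted p = 0.0413), beside an ERB1 difference of -0.47. In the C404A mutant and in wild type 0 of the 22 passed. The median difference of the 22 was -0.40 in the deletant, -0.42 in wild type and -0.24 in the C404A mutant. LoaOOH arrays lay below control arrays without overlap for 18 of them in the deletant (16.0% of all genes). In wild type 19 did (15.4%) and in the C404A mutant 0 (1.63%). Whether the genotypes differ in this was not shown, since 0 genes passed in the difference of responses. In the other 9 partner lists 0 genes passed in any LoaOOH response.

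The deletant was used to ask whether the same genes differ from wild type in a strain that lacks SWI6. In that strain 256 of 259 chromosome V genes also lay above wild type in each treatment. Loss of Swi6 and the chromosome V shift therefore cannot be told apart in this comparison. By limma 0 of the 10 genes differed between the deletant and wild type after LoaOOH (10.4% of all genes did), and 0 in control cells (10.1%). At an unadjusted p under 0.05, ARG80 passed after LoaOOH (22.6% of all genes did) and 0 of the 10 in control cells (22.1%), both below the share over all genes. CSM3 differed by 0.02 after LoaOOH (95% interval -0.15 to 0.19) and by 0.07 in control cells (-0.11 to 0.24), NUP116 by -0.02 (-0.19 to 0.14) and -0.04 (-0.21 to 0.12), and ERB1 by -0.15 (-0.42 to 0.12) and -0.11 (-0.38 to 0.17). ARG80 differed by 0.39 ± 0.142 after LoaOOH (adjusted p = 0.105) and by 0.24 ± 0.142 in control cells (adjusted p = 0.365), with no overlap of arrays in either (17.6% and 14.9% of all genes were higher in this way). STB2 was lower without overlap in control cells (14.1%), and no member was after LoaOOH (15.4%).

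Partner genes of the 10 that differed between the deletant and wild type lay in part on chromosome V. Over all genes 7.36% rose and 3.05% fell after LoaOOH, and 6.94% rose and 3.17% fell in control cells. Counts of 1 or 2 in lists of 7 to 25 genes are too small to set against these shares, so nothing is read about a list from them. Of 11 measured arginine genes linked to ARG80, 3 fell after LoaOOH and 2 in control cells, among them ARG3, ornithine carbamoyltransferase, by 1.37 ± 0.169 and 1.21 ± 0.169 (adjusted p = 3.28e-05 and 0.000125). Of 16 partners and targets of Mcm1, 4 rose and 0 fell after LoaOOH, and 3 rose and 1 fell in control cells, where YOX1, a repressor that binds with Mcm1, fell by 0.44 (adjusted p = 0.0431). SWI4 and MCM3, both on chromosome V, had the largest rises. Of 25 nuclear pore genes 2 rose after LoaOOH, and 2 rose and 1 fell in control cells, the risen ones being GLE2 and NUP157 on chromosome V each time. Of 17 replication fork genes CDC45 and CTF18 rose in both treatments, CDC45 by 0.29 and 0.38, and 2 fell in control cells, among them POL2 by 0.32. CHD1 on chromosome V rose among 7 genes of chromatin remodelling in both treatments. Of 19 genes of the proton pump 3 rose after LoaOOH and 2 in control cells, with VMA8 and VMA3 on chromosome V in both. Of 10 genes around Sin3, STB6, the paralogue of STB2, rose after LoaOOH and ASH1 in control cells. In the Far complex (6 genes) and the mitotic exit and spindle checkpoint genes (17) 0 passed.

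The genes most like CSM3 over the 18 arrays were those that shared the C404A level. By Pearson's r these were MNN1 (0.957), NUP116 (0.941), YAR068W (0.909), YHR054C (0.892) and TIR1 (0.876). ERB1 correlated with CSM3 at 0.805 and with NUP116 at 0.777, and its own nearest genes were HTA1, a histone H2A gene (0.907), YCR090C (0.894), DRE2 (0.845), DBR1 (0.842) and YEH1 (0.838), on 4 other chromosomes. The points are the same 18 arrays in 6 groups, so these values mostly describe group means, and they are given with no test.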

How the data were processed

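Total RNA was labelled with biotin and read on 18 Affymetrix arrays, 1 per sample. The authors deposited log2 signals per probe set. Per the submitters' processing notes, PLIER in Affymetrix Expression Console produced them, and the log2 base was taken from their range of 2.47 to 14.99. The sources used here name no version, setting or scaling between arrays. Of 10928 probe sets, 5498 had 1 yeast gene in the platform annotation and were named through the R64 gene table, which left 5449 genes. For 47 genes with several probe sets, one without a suffix letter came first, then the highest mean. Each of the 10 members had 1 probe set. Array medians ran from 10.56 to 10.64, so no further normalization was applied.

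The 6 group means were fitted with limma 3.58.1 in R 4.3.3, which gave two-sided p-values for 7 comparisons, adjusted by Benjamini-Hochberg over all 5449 genes at 0.05. It was tested on simulated data. For the 4 C404A comparisons it gave differences and SEs alone. Members, lists and tests were chosen with earlier results of these data known. The genes named are the members, neighbours that separated the 6 C404A arrays from the other 12, up to 3 called genes with the largest change per partner list, the 5 genes most correlated with CSM3 and with ERB1, and the 5 widest gaps. Direct partners of the 3 proteins, and windows of 3 genes, were added after values were seen. The number of arrays limits the precision. Alternatives were other normalizations, filters, probe sets, blocks and left-out arrays.

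Deviations of LoaOOH and control arrays with the same replicate number correlated at 0.115 to 0.605 in the C404A mutant, 0.0548 to 0.264 in the deletant and 0.502 to 0.856 in wild type. Arrays with different numbers reached at most 0.000926 in the deletant and 0.199 in wild type, so the numbers pair the treatments there, weakly in the deletant. In the C404A mutant they reached 0.227, above the same-number values of replicates 1 (0.115) and 2 (0.182), so only replicate 3 (0.605) stood apart. Between a mutant and wild type, arrays with the same number correlated at -0.745 to 0.240.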

Additional observations from a re-analysis of the deposited data

How the results depend on the processing

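The C404A differences of CSM3 and NUP116 moved by less than the spread between replicates under all 27 alternatives run for them, as did those of ERB1 except with CT arrays only, where the C404A minus wild type difference in control cells was 0.47 instead of 0.66. The median of the 8 members other than CSM3 and ERB1, C404A mutant minus wild type after LoaOOH, was -0.12, and was -0.028 with CT arrays only and -0.021 without both C404A replicate 2 arrays (-0.18 to -0.021 with 1 array left out). Minus the deletant it was -0.094, and -0.0082 without both arrays (-0.13 to -0.0082 with 1 left out). The median of the 7 flanking members, a summary added after seeing the data, was -0.18 against wild type in control cells and 0.015 with CT arrays only. After LoaOOH it was -0.14, and -0.023 without both C404A replicate 2 arrays (-0.19 to -0.023 with 1 left out). The causes were not tested. The number of members called was 0 in each of the 7 tested comparisons and stayed 0 in the differences of responses and in the deletant minus wild type comparisons. Without both C404A replicate 2 arrays the LoaOOH responses gave 1 member in the C404A mutant (ERB1, adjusted p = 0.0341), 2 in the deletant and 1 in wild type. With 1 array left out they gave 0 to 1, 0 to 2 and 0 to 1. With the replicate block shared across genotypes, as with the prefix block, 0 members passed in each comparison, and no call of a member changed. With the replicate block within genotype, added after seeing the data, 1 member passed in the deletant (STB2, adjusted p = 0.0497). Adjusted p ran from 0.0134 to 0.199 for ERB1 in the deletant and from 0.0209 to 0.312 for ERB1 in wild type. With CT arrays, the replicate block or the prefix block, 0 genes of all passed in any LoaOOH response, against 14 in wild type and 194 in the deletant in the fit reported. The number of arrays limits what the responses can show.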
